A study of Mus musculus with 6 samples.

Results

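The 9 genes described here mark the nerve cells, glial cells and pacemaker cells of the gut wall, and were chosen by name from the 24421 gene rows deposited for each sample. Elavl4, Uchl1, Nos1, Vip and Tubb3 mark neurons, S100b and Sox10 mark glia, and Kit and Ano1 mark the interstitial cells of Cajal, which pace gut contractions. RNA was sequenced from colon tissue of C57BL/6 mice labelled as 7 weeks of age. The 3 DSS samples came from mice with a chronic colitis brought on by dextran sulfate sodium, a polymer toxic to the gut lining, and the other 3 samples were control colon. The labels give no dose, no number of DSS cycles and no sex, and do not state that each sample is a different mouse. The p-values below therefore reflect sample-to-sample spread that could be technical alone.

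The enteric nervous system lies in the gut wall as a pair of nerve networks, one between the muscle layers and one in the submucosa. Its inhibitory motor neurons relax smooth muscle with nitric oxide, made by the neuronal synthase that Nos1 encodes, and with vasoactive intestinal peptide, encoded by Vip. Enteric glia surround these neurons and depend on the transcription factor SOX10, and S100B is a calcium-binding protein used to mark them. Interstitial cells of Cajal sit among nerves and muscle, need the receptor tyrosine kinase KIT to persist, and use the calcium-activated chloride channel ANO1 to generate slow waves.

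Levels are given as FPKM, in which fragment counts are divided by transcript length and library total, which allows levels of different genes to be set side by side. Read totals are unknown, because the values showed no steps of single reads. The FPKM sum of a sample ranged from 609544 to 678076. The DSS samples were less alike (Pearson r of 0.936 to 0.961) than the controls (0.971 to 0.986). On the first principal component, with 59% of the variance, DSS 1 lay at -19, nearer to the controls (38.1 to 39.9) than DSS 2 (-51.2) and DSS 3 (-47.5). In the test over all genes (limma on log2(FPKM + 1), Benjamini-Hochberg adjusted p under 0.05), 783 genes were higher and 316 lower in DSS. With upper-quartile scaling the split was 505 higher and 536 lower. The median log2 fold change of all tested genes was 0.13 as deposited and -0.016 with upper-quartile scaling, so small positive differences lie at the level of the whole table.

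The colon tissue held readable transcripts of all 3 cell types in every sample. Beside the members, the neuronal genes Ret and Prph, the glial gene Gfap and the pacemaker factor gene Etv1 were at 0.979 FPKM or more in every sample. Insl5, a hormone gene of colonic enteroendocrine cells, was also present in every sample, at 8.94 to 315 FPKM.

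The 2 pacemaker genes and Vip are shown by the sequence around their start sites, since Ano1 and Kit mark 1 cell type and gave different results, and Vip was the most abundant member. The windows run from 250 bases before to 50 bases after the start in RefSeq (GRCm38.p6), 5′ to 3′ on the gene's strand. Windows were found for 8 of the 9 members. They cover Ano1 at chr7:144738524-144738823 on the minus strand, Kit at chr5:75574737-75575036 on the plus strand and Vip at chr10:5638968-5639267 on the plus strand. The Ano1 window lies inside the GENCODE gene span, whose 5′ end is at 144751974, so it shows a start within that span. Capitals mark GGGCGG, the GC box, in Ano1 and Kit, and mark TATAAA and TGACG, the core of the cyclic AMP response element, in Vip, each searched on both strands.
Ano1: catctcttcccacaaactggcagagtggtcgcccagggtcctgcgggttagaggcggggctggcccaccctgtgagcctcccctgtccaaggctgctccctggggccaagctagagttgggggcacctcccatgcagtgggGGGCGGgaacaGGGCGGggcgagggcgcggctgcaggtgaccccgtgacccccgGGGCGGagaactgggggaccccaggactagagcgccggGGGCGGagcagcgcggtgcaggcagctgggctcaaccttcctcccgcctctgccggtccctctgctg
Kit: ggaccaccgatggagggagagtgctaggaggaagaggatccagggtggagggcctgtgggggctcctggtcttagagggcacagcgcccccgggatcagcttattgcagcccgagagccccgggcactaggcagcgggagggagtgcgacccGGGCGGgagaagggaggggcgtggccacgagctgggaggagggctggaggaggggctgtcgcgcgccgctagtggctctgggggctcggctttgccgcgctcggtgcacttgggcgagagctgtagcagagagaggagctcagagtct
Vip: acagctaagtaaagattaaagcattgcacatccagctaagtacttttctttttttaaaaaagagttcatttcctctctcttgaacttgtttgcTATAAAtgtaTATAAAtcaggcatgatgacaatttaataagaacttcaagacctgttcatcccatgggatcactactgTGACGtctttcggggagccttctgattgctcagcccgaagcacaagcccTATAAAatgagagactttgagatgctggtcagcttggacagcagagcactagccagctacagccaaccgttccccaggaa
The Ano1 window held 4 matches of GGGCGG and the Kit window 1. Of 32544 windows, 35.9% held GGGCGG. The Vip window held 3 matches of TATAAA, found in 13.6% of windows, and 1 of TGACG, found in 20.9%. These matches are a description of the letters, and none was tested as a binding site.

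Among the 9 genes, the chloride channel gene Ano1 was lower in colitis, and no other member passed the test. Of the 9, 7 reached the level needed for testing, and Nos1 and Sox10 did not. The 1 call among 7 (14.3%) stands beside 8.9% of all tested genes called in either direction and 2.56% called lower. At an unadjusted p under 0.05 the count was 2 of 7, Ano1 and S100b, beside 28.3% of all tested genes. The median log2 fold change of the 7 was -0.01, against 0.13 for all tested genes. Fitted differences were above 0 for 3 of the 7 and below 0 for 4.

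**Figure D1:**
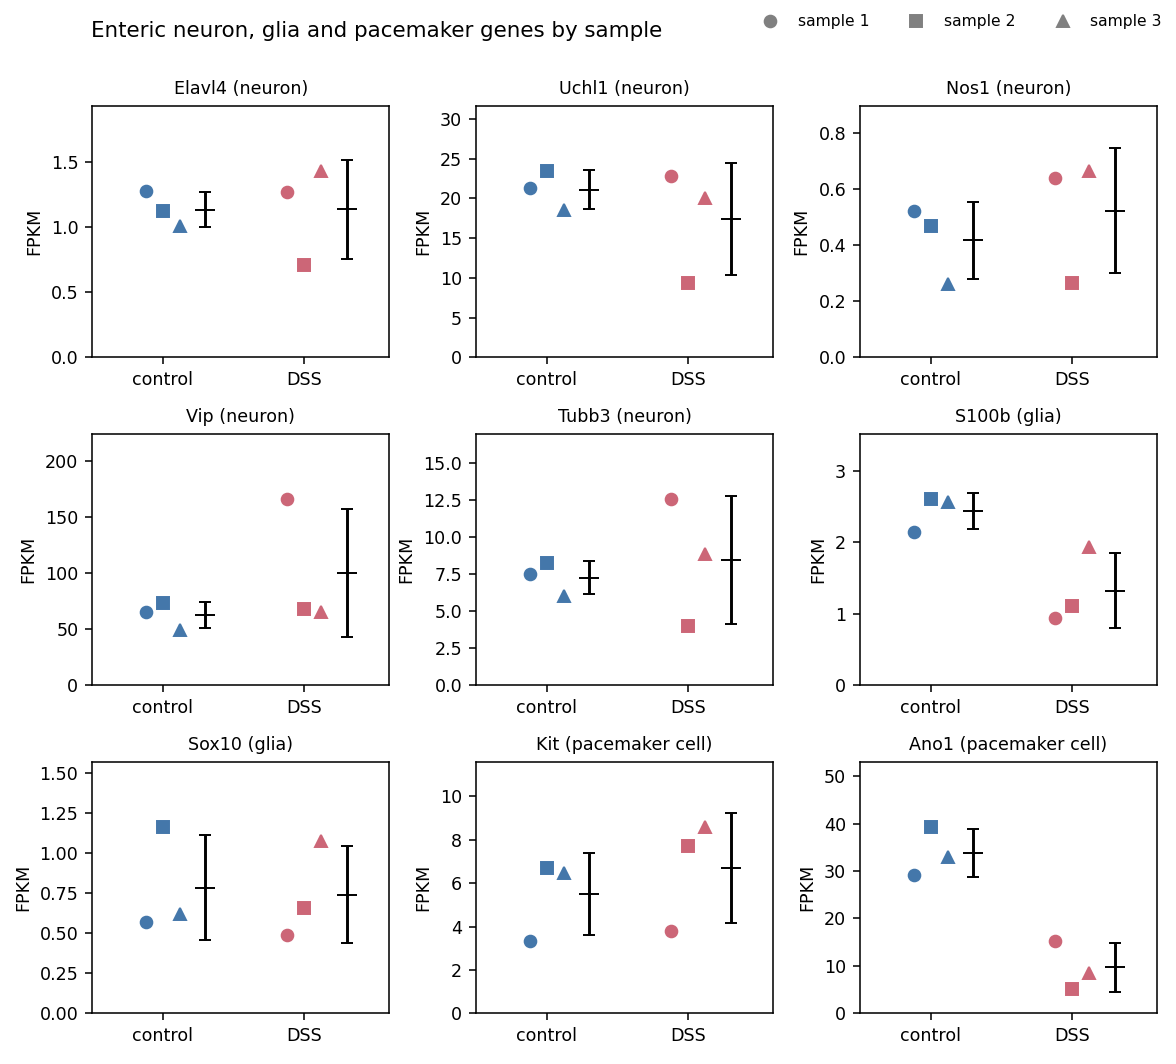
FPKM of each member (y axis, from 0) in the 3 control samples (blue) and the 3 DSS samples (red), with marker shape giving the sample number and the bar the mean ± SD. Ano1 was at 5.19 to 15.3 FPKM in the DSS samples and 29.1 to 39.3 FPKM in the controls, S100b also separated the groups, and the other 7 genes overlapped.

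Ano1 (chr7:144588549-144751974, minus strand, GENCODE on GRCm38) had 15.3, 5.19 and 8.55 FPKM in DSS 1, 2 and 3 and 29.1, 39.3 and 32.98 FPKM in control 1, 2 and 3. The highest DSS sample was below the lowest control sample, as it was for 9.51% of tested genes. The mean was 9.69 ± 5.17 FPKM in the DSS samples and 33.8 ± 5.14 FPKM in the controls (SD, n = 3 each), a ratio of 0.287. The log2 fold change was -1.80 ± 0.34 SE, with a 95% interval from -2.60 to -1.01 (limma adjusted p = 0.0216). Among the tested genes Ano1 moved from the 80.7th percentile of level in control colon to the 50.9th in DSS. Among the fits that left out 1 sample, the call was lost without DSS 3 (adjusted p = 0.0762) and without control 1, 2 or 3 (0.0665, 0.0922 and 0.0845), with 0.00173 to 0.0922 over all alternatives. With the replicate number as a block the call was lost too (limma adjusted p = 0.0509). In these whole-tissue samples, fewer cells of a type and less RNA per cell cannot be told apart. Which cells gave the Ano1 RNA was not tested, and no list of other cells that may carry it was compared.

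Kit (chr5:75574916-75656722, plus strand), the receptor that interstitial cells of Cajal need, had 3.80, 7.69 and 8.59 FPKM in the DSS samples and 3.32, 6.72 and 6.48 FPKM in the controls. Each group held 1 low sample and 2 higher ones, and the groups overlapped. The log2 fold change was 0.23 ± 0.33 SE, with an interval from -0.55 to 1.01 (limma adjusted p = 0.699), and it was -0.04 without control 1. The data therefore leave room for a difference of either sign within that interval. The ratio of Kit to Ano1 FPKM was 0.248, 1.48 and 1.0 in DSS 1, 2 and 3 and 0.114, 0.171 and 0.196 in the control samples. All 3 DSS samples had the higher ratio, and the mean log2 ratio of the 2 genes differed by 2.03 between the groups (exact two-sided permutation p = 0.1, which is the lowest value 3 against 3 can give, adjusted p = 0.191 over 21 pairs).

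Kit, itself at 3.32 to 8.59 FPKM, is also carried by mast cells, whose genes are given beside it. Of 10 mast cell genes, 2 reached the level for testing and neither passed (limma, none at an unadjusted p under 0.05). Their FPKM summed to 5.29 to 10.9 in DSS and 4.35 to 11.4 in control colon, with the highest sum of each group in DSS 1 and control 1, the samples lowest in Kit. The control 1 sum was mostly Cma1, at 10.1 FPKM, and without it control 1 was not the highest control. Of the untested genes, Mcpt2, Fcer1a and Gata2 had all DSS samples above all controls, as for 25.6% of tested genes. Their DSS means were at most 1.54 FPKM, and the other untested genes overlapped. Tpsab1, a mast cell tryptase gene, was listed at 0 in every sample. The tested pair were the protease genes Cma1 at 2.73, 1.03 and 1.23 FPKM in the DSS samples and 10.1, 2.22 and 3.23 FPKM in the controls, and Mcpt1 at 2.21, 1.15 and 0.443 FPKM in the DSS samples and 0.348, 1.03 and 0.478 FPKM in the controls. Cma1 has a near-identical copy, so its values are uncertain. The part of mast cells in the Kit values was not tested.

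**Figure D2:**
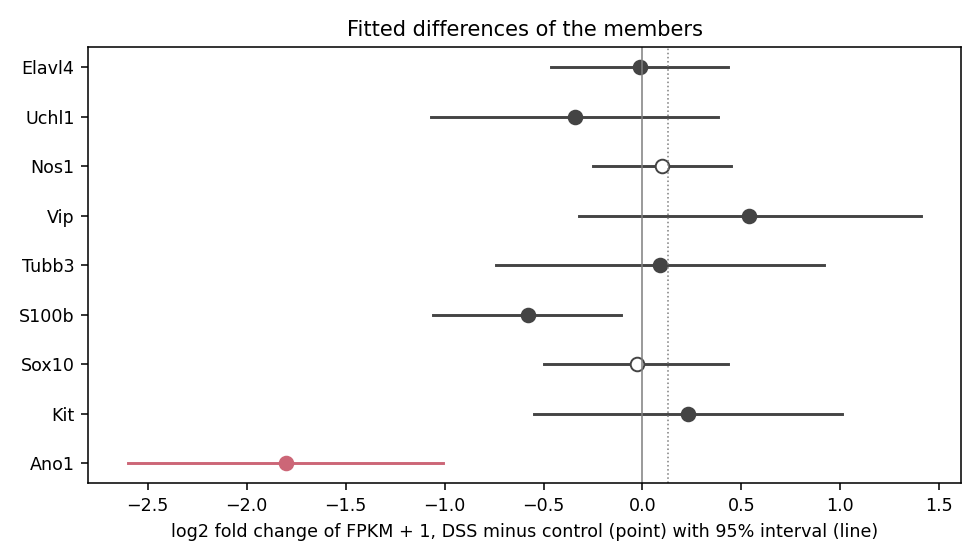
Fitted log2 fold change of FPKM + 1, DSS minus control (x axis), for each member, with its 95% interval. Red marks the gene that passed, open circles the 2 genes under the filter (values from the fit without it), and the dotted line the median of all tested genes at 0.13. The Ano1 interval lies from -2.60 to -1.01.

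None of the 5 neuronal genes passed the test, and DSS 2 was the lowest of the DSS samples in 4 of them. Elavl4 (chr4:110203722-110351909, minus strand), which encodes an RNA-binding protein of neurons, had 1.27, 0.706 and 1.43 FPKM in the DSS samples and 1.27, 1.12 and 1.01 FPKM in the controls. Its group means were 1.13 FPKM in both (log2 fold change -0.01 ± 0.19 SE, interval -0.46 to 0.43, limma adjusted p = 0.972). DSS 2 lay below and DSS 3 above the control range.

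Uchl1 (chr5:66676091-66687234, plus strand), a ubiquitin hydrolase abundant in neurons, had 22.8, 9.38 and 20.02 FPKM in the DSS samples and 21.3, 23.4 and 18.5 FPKM in the controls. Only DSS 2 stood outside the control range. The log2 fold change was -0.34 ± 0.31 SE with an interval from -1.07 to 0.38 (limma adjusted p = 0.506), and it was 0.03 without DSS 2. The antisense gene Uchl1os shares exon positions with Uchl1 and was listed at 0 in every sample. The library kit named in the labels does not keep strand, so reads of the pair cannot be told apart.

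Tubb3 (chr8:123411424-123422015, plus strand), the tubulin of neuronal microtubules, had 12.6, 3.98 and 8.87 FPKM in the DSS samples and 7.53, 8.25 and 6.05 FPKM in the controls. DSS 2 lay below the control range and the other 2 DSS samples above it. The log2 fold change was 0.09 ± 0.35 SE with an interval from -0.74 to 0.92 (limma adjusted p = 0.896). The value was -0.23 without DSS 1, 0.49 without DSS 2 and -0.06 with median-of-ratios scaling.

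Vip (chr10:5639218-5647617, plus strand), the relaxing neuropeptide gene, was the most abundant member. It had 165.9, 68.1 and 65.7 FPKM in the DSS samples and 65.4, 72.9 and 49.6 FPKM in the controls. DSS 1 stood apart from all other samples, and DSS 2 and DSS 3 lay within the control range. The log2 fold change was 0.54 ± 0.37 SE with an interval from -0.32 to 1.41 (limma adjusted p = 0.37), and it was 0.11 without DSS 1.

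Nos1 (chr5:117781032-117958840, plus strand), the neuronal nitric oxide synthase, stayed under 1 FPKM in every sample and was not tested in the main fit. It had 0.639, 0.265 and 0.664 FPKM in the DSS samples and 0.522, 0.468 and 0.260 FPKM in the controls, with overlapping groups. The antisense gene Gm26995 shares exon positions with Nos1, so reads of this pair cannot be told apart either. A fit without the filter gave a log2 fold change of 0.10 ± 0.15 SE (limma adjusted p = 0.736).

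The glial gene S100b was lower in each DSS sample than in any control sample but did not pass. S100b (chr10:76253853-76261159, plus strand) had 0.938, 1.11 and 1.93 FPKM in the DSS samples and 2.15, 2.61 and 2.56 FPKM in the controls. The groups did not overlap, as for 9.51% of tested genes with DSS lower and 35.1% in either direction. Its mean was 1.33 ± 0.530 FPKM in the DSS samples and 2.44 ± 0.253 FPKM in the controls (SD, n = 3 each). The log2 fold change was -0.58 ± 0.20 SE with an interval from -1.06 to -0.11 (limma, unadjusted p = 0.0226, adjusted p = 0.115). Adjusted p lay between 0.0533 and 0.278 over the alternatives. Sox10 (chr15:79154908-79165240, minus strand), the factor glia depend on, had 0.489, 0.656 and 1.07 FPKM in the DSS samples and 0.569, 1.16 and 0.620 FPKM in the controls. These groups overlapped, and the fit without the filter gave a log2 fold change of -0.03 ± 0.19 SE (limma adjusted p = 0.934).

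Fat cells carry S100b as well, and several of their genes fell. Of 8 tested adipocyte genes 4 fell and 2 rose, beside 2.56% of all tested genes called lower and 6.34% called higher. Adipoq, the adiponectin gene, had 0.568, 0.339 and 0 FPKM in the DSS samples and 6.30, 5.43 and 5.18 FPKM in the controls, and the complement factor D gene Cfd had 2.50, 4.58 and 1.33 against 33.1, 24.2 and 25.4 FPKM. Car3 (log2 fold change -2.30) and Retn (-1.96) fell too, while Cidec (1.17) and Fabp4 (0.87) rose. Both rises were called without DSS 1 (adjusted p = 0.00474 and 0.00772) and lost without any 1 other sample (up to 0.124 and 0.107), whereas 4 falls were called with each sample left out. The 10 listed genes summed to 110 to 161 FPKM in the DSS samples and 115 to 133 FPKM in the controls. Fabp4 alone gave 94.1, 118 and 143 FPKM of the DSS sums and 61.3, 61.2 and 67.5 FPKM of the control sums. Without it the sums were 15.8, 25.4 and 17.7 FPKM in DSS 1, 2 and 3 and 71.4, 53.6 and 58.1 FPKM in the controls, and all DSS sums were below all control sums. The sums of all 10 genes overlapped, so this separation comes from leaving out a listed gene that rose. Lep was at or under 0.0876 FPKM in every sample. Melanocyte genes, which accompany Sox10 and Kit in pigment cells, summed to at most 1.99 FPKM in any sample, with Mlana and Tyrp1 listed at 0 throughout. The part of fat cells in the S100b values was not tested.

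Ordered by level in control colon, Vip (62.6 FPKM) stood above Ano1 (33.8), Uchl1 (21.1), Tubb3 (7.28), Kit (5.51), S100b (2.44), Elavl4 (1.13), Sox10 (0.784) and Nos1 (0.416). Tubb3 and Kit overlapped over the control samples, as did Elavl4 and Sox10, and the other neighbours did not. In DSS the mean of Ano1 (9.69 FPKM) lay between those of Uchl1 (17.4) and Tubb3 (8.48). The other members kept their control order by group mean, and Ano1 and Tubb3 overlapped over the DSS samples.

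Ratios between members within a sample do not depend on scaling apart from the pseudocount, and they were compared for the 21 pairs of tested members, a measure added after the data were seen. In 11 pairs (52.4%) the groups did not overlap, beside 34.9% of all pairs of tested genes. All 6 pairs with Ano1 were among them, and these repeat the difference of that gene. Among the remaining pairs the share was close to that of all pairs of tested genes. Pairs share members and are not independent of each other. Vip was high against Uchl1 in DSS, with a Uchl1 to Vip ratio of 0.138, 0.138 and 0.305 in DSS and 0.325, 0.321 and 0.374 in control colon. Uchl1 was also lower against Tubb3, at 1.81, 2.36 and 2.26 in DSS and 2.83, 2.84 and 3.06 in control colon. Each of these had an exact two-sided permutation p of 0.1, again the lowest possible, and an adjusted p of 0.191 over the 21 pairs.

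Neurons, glia and pacemaker cells lie in or beside the muscle coat, and smooth muscle genes varied between the DSS samples. The mean log2(FPKM + 1) of 17 smooth muscle genes was 5.95, 5.57 and 6.97 in DSS 1, 2 and 3 and 7.10, 7.03 and 6.80 in control colon (exact permutation test, two-sided p = 0.2). DSS 1 and DSS 2 were below the controls, and DSS 3 lay within their range. In DSS 3, with the mean muscle level in the control range, Ano1 was at 8.55 FPKM against at least 29.1 FPKM in controls. Single muscle genes of DSS 3 went both ways. Des was at 185 FPKM against at least 244 FPKM in the controls, and Cald1 at 143 FPKM against at most 75.8 FPKM. The part of muscle content in the Ano1 value of DSS 3 was not tested. In DSS 1, by contrast, the log2 level of Ano1 relative to the muscle genes (-1.92) was within the control range of -2.19 to -1.70, and in DSS 2 it was -2.94. Over all samples this relative level of Ano1 overlapped between groups, with a difference of -0.99 (exact permutation p = 0.2, adjusted p = 0.257 over 9 genes). With only Acta2, Myh11, Des and Actg2 as the reference the difference was -0.66 (exact permutation, adjusted p = 0.4).

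Relative to muscle, the other 8 members had mean differences above 0, on a measure whose reference itself was 0.81 lower in DSS. The median difference of all tested genes on this measure was 0.95. For Elavl4, Nos1, Tubb3 and Kit all 3 DSS samples lay above all 3 controls, by 0.80, 0.91, 0.90 and 1.04 on the log2 scale (exact permutation, two-sided p = 0.1, adjusted p = 0.225 for each). Of all tested genes 45.9% lay above the controls in the same way, so these 4 of 9 members are near the background. Kit relative to muscle was -3.68, -2.45 and -3.71 in DSS and -4.99, -4.08 and -3.90 in control colon. Tubb3 relative to muscle was -2.18, -3.26 and -3.67 in DSS and -4.01, -3.82 and -3.98 in control colon, with DSS 3 nearest to the controls. The part of muscle content in these differences was not tested. Vip overlapped through DSS 3, which was at -0.91 among controls at -1.14 to -0.82. Of the muscle genes themselves, Tpm2, a tropomyosin gene, fell (log2 fold change -1.27, limma adjusted p = 0.0306) and the other 16 did not pass, with a list median of -0.95. Without DSS 3, 11 of the 17 were called lower, and without any 1 control none was (Tpm2 adjusted p up to 0.111).

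**Figure D3:**
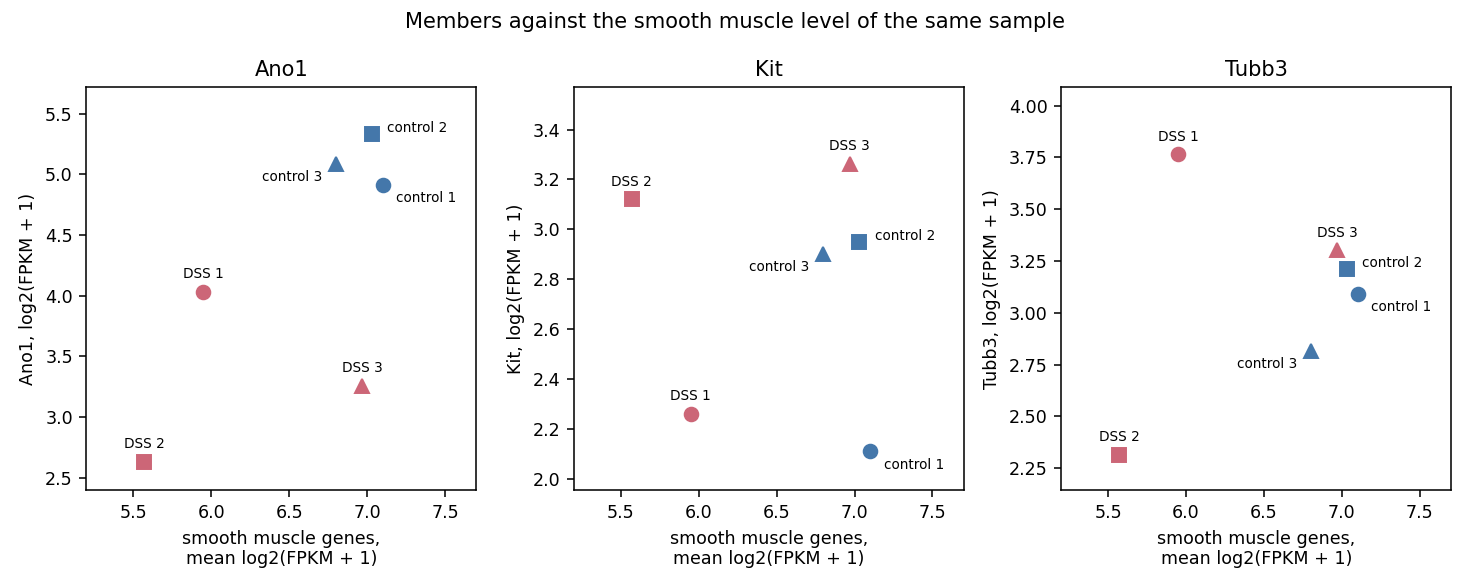
Level of Ano1, Kit and Tubb3 (y axes, log2(FPKM + 1)) against the mean level of 17 smooth muscle genes (x axis, log2(FPKM + 1)) in each sample, control in blue and DSS in red. The mean muscle level of DSS 3 (6.97) lies in the control range, with Ano1 below all controls. DSS 1 and DSS 2 sit left of the controls in all panels.

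Other neuronal genes mostly did not pass, and the exceptions were genes of transmitters and of a calcium-binding protein. Of 33 further enteric neuron genes 21 were tested, 2 rose and 1 fell, beside 6.34% of all tested genes called higher and 2.56% called lower. Their median log2 fold change was -0.02. Of the untested genes, Phox2a had 0.690, 0.734 and 0.608 FPKM in the DSS samples and 2.46, 1.20 and 0.973 FPKM in the controls. All its DSS samples were below all controls, as for 9.51% of tested genes, and the other untested genes overlapped. Cartpt, which encodes the neuropeptide precursor CART, had 11.5, 5.55 and 16.6 FPKM in the DSS samples and 1.42, 1.57 and 1.08 FPKM in the controls (log2 fold change 2.27 ± 0.35 SE, limma adjusted p = 0.0104). The galanin gene Gal had 38.4, 10.1 and 38.4 FPKM in the DSS samples and 5.16, 5.42 and 4.95 FPKM in the controls (log2 fold change 2.07 ± 0.48 SE, limma adjusted p = 0.0432). All DSS samples were above all controls in both genes, as for 25.6% of tested genes, and DSS 2 was the lowest of its group.

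Calb2, which encodes the calcium-binding protein calretinin of many enteric neurons, fell. It had 5.60, 6.16 and 6.13 FPKM in the DSS samples and 14.7, 14.2 and 12.8 FPKM in the controls (log2 fold change -1.09 ± 0.14 SE, limma adjusted p = 0.00526). Samples within each group lay close together, and Calb2 passed in all 15 alternatives, with adjusted p up to 0.0397. Cartpt lost the call without control 2 or control 3 (adjusted p = 0.0502 and 0.0536, 0.00207 to 0.0536 over all alternatives). Gal lost it in 7 of 15, among them without any sample other than DSS 2 (0.000678 to 0.139).

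Other peptide genes of the list are given for comparison, chosen after their values were seen. Tac1, the substance P gene, had 142, 42.6 and 141 FPKM in the DSS samples and 50, 35.5 and 29.8 FPKM in the controls (limma adjusted p = 0.13). Penk, the enkephalin precursor gene, had 33.0, 10.6 and 29.8 FPKM in the DSS samples and 11.1, 14.4 and 9.77 FPKM in the controls (adjusted p = 0.217). Both were high in DSS 1 and DSS 3 and in the control range in DSS 2, a different order of samples from Vip, which was high in DSS 1 alone. Grp, the gastrin-releasing peptide gene, had 6.94, 6.98 and 10.6 FPKM in the DSS samples and 8.37, 11.1 and 7.42 FPKM in the controls, with overlapping groups. Npy, the neuropeptide Y gene, had 6.13 FPKM in DSS 1, was listed at 0 in DSS 2 and DSS 3, and had 2.92, 1.40 and 1.28 FPKM in the controls. Without DSS 2, 4 genes of the list were called higher. Without DSS 1, DSS 3 or control 1 there was 1, and without control 2 or control 3 there was none. The count lower was 3 without DSS 1 and 1 without each other sample.

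**Figure D4:**
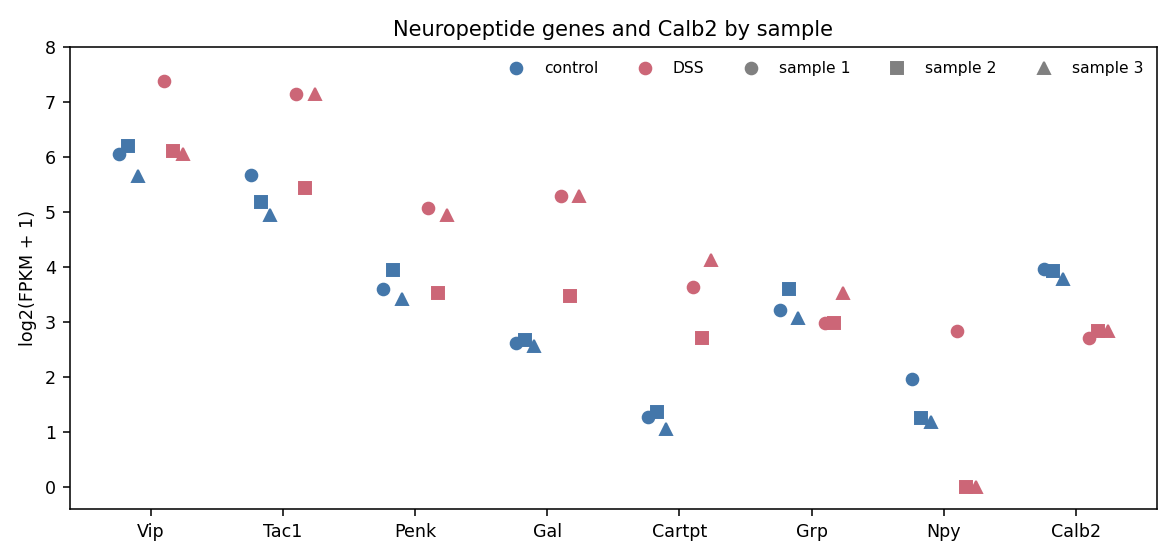
Level of Vip, 6 other neuropeptide genes and Calb2 (y axis, log2(FPKM + 1)) in control (blue) and DSS (red) samples, with marker shape giving the sample number. Gal and Cartpt lie higher and Calb2 lower in all 3 DSS samples, and Tac1 and Penk are high in DSS 1 and DSS 3.

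Neuronal genes are shared with enteroendocrine cells of the epithelium, none of whose 10 tested genes passed (limma, 3 at an unadjusted p under 0.05). Their FPKM summed to 236 to 533 in DSS and 577 to 623 in control colon. Insl5 made up much of the control sum, with 213, 8.94 and 25.3 FPKM in DSS 1, 2 and 3 and 304, 315 and 307 FPKM in the controls (log2 fold change -3.02, unadjusted p = 0.0263, limma adjusted p = 0.125). All DSS samples of Insl5 were below all controls, as for 9.51% of tested genes. Pyy, the peptide YY gene, had 205, 86.7 and 54.2 FPKM in DSS 1, 2 and 3 against 169, 192 and 178 FPKM (adjusted p = 0.248), with overlapping groups. The pan-endocrine gene Chga, chromogranin A, had 19.6, 56.8 and 31.1 FPKM in the DSS samples and 27.4, 35.4 and 34.2 FPKM in the controls. The 2 smallest p-values were those of the hormone genes Gcg, at 48.4, 125 and 64.0 against 30.2, 31.9 and 30.8 FPKM (adjusted p = 0.0596), and Sct, at 12.7, 47.9 and 18.1 against 6.98, 9.26 and 6.05 FPKM (adjusted p = 0.0866). DSS 2 was the highest sample in both and the lowest DSS sample in Cartpt and Gal. Among the fits that left out 1 sample, Gcg was called without DSS 1 (0.0124) and without DSS 2 (0.0364, 0.0124 to 0.17 over all alternatives), and Sct without DSS 1 (0.0244, 0.0244 to 0.233). Without DSS 1 the list had 2 genes called higher and 2 lower.

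None of 6 tested genes among 16 further glial genes passed (limma, 1 at an unadjusted p under 0.05), and their median log2 fold change was -0.05. Of the untested glial genes, Ngfr and Kcna1 had all DSS samples below all controls, as for 9.51% of tested genes. Their control means were 1.11 and 0.257 FPKM, and the other untested glial genes overlapped. Gpm6b, a membrane protein of glia and neurons, had 7.02, 2.98 and 3.09 FPKM in the DSS samples and 1.86, 0.712 and 1.87 FPKM in the controls (adjusted p = 0.0915). Erbb3, a neuregulin receptor of glia and epithelium, had 14.6, 14.8 and 7.42 FPKM in the DSS samples and 21.0, 14.5 and 21.1 FPKM in the controls (adjusted p = 0.2).

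None of 7 tested genes among 10 further pacemaker genes passed (limma, 1 at an unadjusted p under 0.05), with a median log2 fold change of 0.16. Which cells gave the RNA of these genes was not tested, and the list need not stand for interstitial cells of Cajal alone. Fitted differences were above 0 for 5 and below 0 for 2. The largest was that of Thbs4, at -1.54 (limma adjusted p = 0.288), with overlapping groups. Thbs4 had 87.5, 6.14 and 33.4 FPKM in the DSS samples and 71.2, 84.4 and 85.3 FPKM in the controls. Etv1, a transcription factor of interstitial cells of Cajal, had 1.49, 1.07 and 1.67 FPKM in the DSS samples and 1.27, 1.26 and 1.26 FPKM in the controls, with overlapping groups. Kitl, the KIT ligand, had 25.8, 27.6 and 27.9 FPKM in the DSS samples and 9.55, 24.4 and 20.1 FPKM in the controls (adjusted p = 0.217). Its DSS samples were all above its controls, as for 25.6% of tested genes. Control 1, the sample lowest in Kit, was also the lowest in Kitl. Elovl6, a fatty acid elongase, had 10.1, 13.2 and 18.0 FPKM in the DSS samples and 9.36, 7.89 and 9.25 FPKM in the controls (adjusted p = 0.143), and was called without DSS 1 (0.0491, 0.0491 to 0.342 over all alternatives). Elovl6 and Etv1 have near-identical copies, so their values are uncertain. Of interstitial cells marked by PDGFRA, which lie beside these cells, Pdgfra had 9.52, 9.41 and 9.50 FPKM in the DSS samples and 8.68, 8.35 and 8.0 FPKM in the controls (adjusted p = 0.466), and the purine receptor gene P2ry1 had 4.48, 8.25 and 7.57 against 2.98, 5.95 and 5.37 FPKM (adjusted p = 0.363). Neither passed (limma, none at an unadjusted p under 0.05).

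Among signals that sustain enteric neurons and the receptors for their transmitters, 1 gene passed. Of 9 tested trophic factor and receptor genes Ednrb rose, beside 6.34% of all tested genes called higher. The list median was -0.11, and 2 of the 9 had an unadjusted p under 0.05 (limma). The other was Bmp2, at 13.1, 9.43 and 8.0 FPKM in the DSS samples and 16.0, 35.0 and 21.2 FPKM in the controls. Bmp2 had a log2 fold change of -1.12 (limma adjusted p = 0.0596). Ednrb, the endothelin receptor needed for enteric neuron development, had 5.63, 5.85 and 4.19 FPKM in the DSS samples and 2.31, 3.09 and 2.48 FPKM in the controls (limma adjusted p = 0.0458). Its call was lost in 12 of 15 alternatives, among them each sample left out and each other scaling (adjusted p 0.0396 to 0.157). Of 7 tested receptors and targets of nitric oxide and VIP none passed (limma, 1 at an unadjusted p under 0.05). The VIP receptor gene Vipr1 had 30.9, 17.2 and 22.0 FPKM in the DSS samples and 22.3, 29.8 and 35.8 FPKM in the controls, and Vipr2 had 1.30, 1.78 and 1.55 against 0.789, 1.27 and 1.23 FPKM. The nitric oxide receptor subunit gene Gucy1b3 had 5.83, 9.54 and 11.6 FPKM in the DSS samples and 5.2, 7.27 and 5.41 FPKM in the controls (adjusted p = 0.253). Mrvi1, a target of the cyclic GMP kinase in smooth muscle, had 2.87, 2.69 and 5.12 FPKM in the DSS samples and 6.00, 5.28 and 5.98 FPKM in the controls (adjusted p = 0.135). Mrvi1 followed the muscle genes in being highest in DSS 3 within its group.

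**Figure D5:**
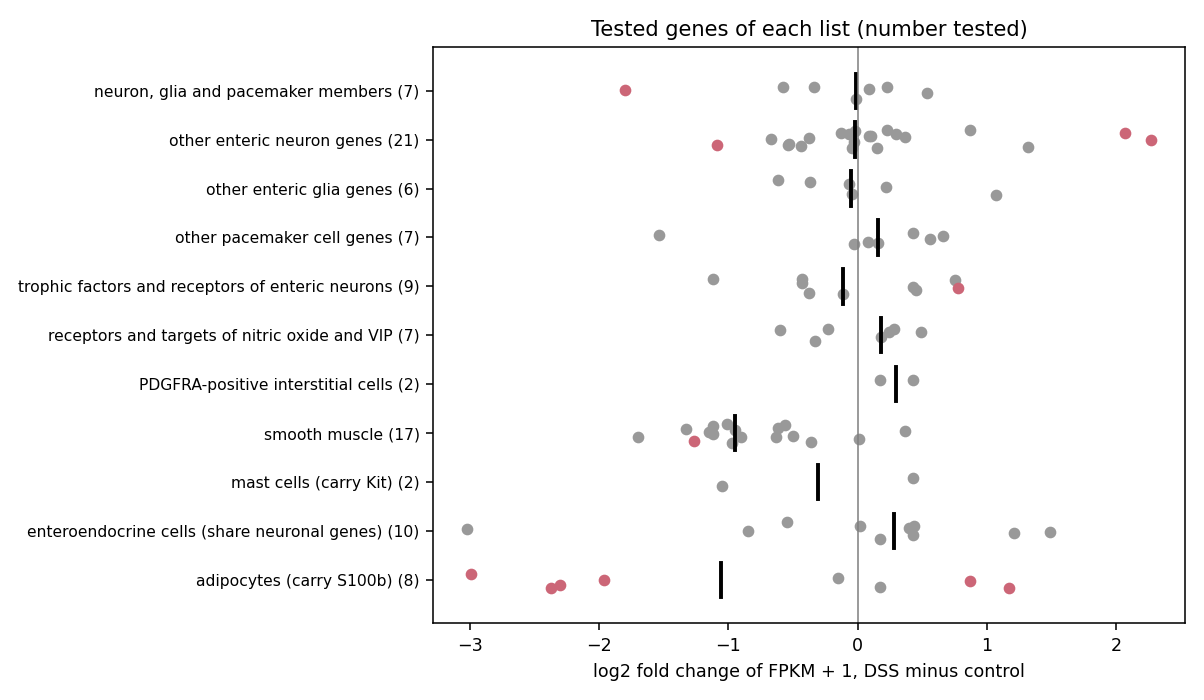
Fitted log2 fold change of FPKM + 1, DSS minus control (x axis), of each tested gene in the member list and the 10 context lists with tested genes, with the number tested in parentheses. Red points passed the test and black bars are list medians, which lay at -0.95 for smooth muscle and near 0 for the neuronal and glial lists.

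Genes outside the lists were ranked by how closely their log2 levels, centred over the 6 samples, followed the mean profile of each cell type's tested members. The measure was the Euclidean distance over 6 samples, among 11714 genes. Nearest to the pacemaker profile were Prmt2, an arginine methyltransferase (distance 0.092), Il17rc, a subunit of the interleukin-17 receptor (0.166), and the serotonin receptor gene Htr4 (0.178). Nearest to S100b were Rims1 (0.209), Nt5c3b (0.229) and Elmo2 (0.233). The profile of 4 neuronal members was nearest to those of Cenpi (0.109), a centromere protein gene, Ercc6l (0.176) and Anp32b (0.207). Of these 9 genes Il17rc was called, at 38.9, 32.4 and 45.8 FPKM in the DSS samples and 56.9, 87.9 and 77.5 FPKM in the controls (limma adjusted p = 0.0405, 0.0138 to 0.141 over all alternatives, lost in 6 of 15, among them without DSS 2, DSS 3, control 2 or control 3). These distances describe 6 samples and carry no test. The pacemaker profile averages Kit and Ano1, which gave different results, and it is lower in DSS through Ano1. Genes near it were thereby picked for being lower in DSS, so the Il17rc call is no separate result.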

How the data were processed

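RNA of 6 mouse colon samples was analysed, 3 with DSS colitis and 3 controls, grouped and numbered by their titles. The deposited files give an FPKM value for each gene, per their headers as the authors wrote them. The submitters' processing notes name mm10 and TopHat2 2.1.1, and the program that made the FPKM values is not given in the sources used here. Depth is unknown, and since Gapdh was listed at 0 in DSS 1, a 0 can be a failed estimate. Members and lists were chosen with earlier results of these data known. Because the values are FPKM, the planned test of counts did not apply and limma was used, as planned for that case.

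The fit took 12348 genes that reached 1 FPKM in 3 or more samples, on the scale log2(FPKM + 1), using limma 3.58.1 (R 4.3.3, with trend and robust settings, two-sided) with Benjamini-Hochberg adjustment over all of them. Fold changes on this scale understate those of low genes. Named were all members, in each list the genes that passed or, where none did, the 2 smallest p-values, up to 4 muscle genes, and the 3 nearest profiles per cell type among genes without a predicted name. Ret, Prph, Gfap, Etv1, Chga, Insl5, Npy, Tpsab1, Lep, Mlana, Tyrp1, Vipr1, Vipr2 and Tac1, Penk and Grp were named for their role or after their values were seen. The same holds for Pyy, Thbs4, Cald1, Mcpt2, Fcer1a, Gata2, Bmp2, Phox2a, Ngfr and Kcna1. Positions are from GENCODE vM21 on GRCm38, promoters from RefSeq, and near-identical copies (95% identity over 200 bases) from BLAST+ 2.17.0, which found none for a member. The fit was tested on simulated data. Alternatives changed the pseudocount, filter, scaling, moderation and replicate block, and left out each sample.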

Additional observations from a re-analysis of the deposited data

How the results depend on the processing

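Over all genes the count called higher in DSS was 783, and 505 and 517 with upper-quartile and median-of-ratios scaling. The count called lower was 316, and 536, 503 and 497 with upper-quartile, median-of-ratios and quantile scaling. Leaving out 1 sample gave 209 to 1165 higher and 79 to 606 lower, and these fits hold 5 samples. Ano1 kept its direction in all 15 alternatives, from -2.17 to -1.47, the same range as with 1 sample left out. With the replicate number as a block it was -1.80 and lost its call (adjusted p = 0.0509), as did Cidec (0.0604), Ednrb (0.0661), Gal (0.0559), Il17rc (0.0628) and Tpm2 (0.0551), while Sct gained one (0.0482). The labels do not say whether the numbers pair the samples. Deviations of same-numbered samples correlated at 0.082, 0.129 and 0.003, and those of differently numbered samples at -0.113 to 0.034. These low values do not settle whether the samples are paired. The block moved the counts to 640 higher and 255 lower. Signs that turned, none of them in a called gene, were those of Elavl4 (0.14 without DSS 2, 0.03 without control 1), Kit (-0.04 without control 1), Uchl1 (0.03 without DSS 2), Sox10 (0.07 without DSS 1, 0.11 without control 2, untested), Tubb3 (-0.07 with upper-quartile, -0.06 with median-of-ratios and -0.07 with quantile scaling, -0.23 without DSS 1, -0.02 without control 3), Anp32b (0.26 without DSS 2, 0.04 without control 2), Cenpi (-0.15 without DSS 1) and Ercc6l (-0.11 without DSS 1). With 1 sample left out the ranges were -0.11 to 0.14 for Elavl4, -0.04 to 0.54 for Kit, -0.57 to 0.03 for Uchl1, -0.23 to 0.49 for Tubb3, -0.35 to 0.26 for Anp32b, -0.15 to 0.43 for Cenpi and -0.11 to 0.36 for Ercc6l. S100b relative to muscle turned to -0.05 with a pseudocount of 0.1. The cause of these changes was not tested. Low levels limit Nos1, Sox10, Elavl4 and S100b, and no interval for counting error can be given without depth.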
